A study of Rattus norvegicus with 15 samples.

Results

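The 6 genes described here, of 10969 gene symbols on the arrays, encode the enzymes that make nitric oxide and the enzyme that senses it: the synthases Nos1, Nos2 and Nos3, the soluble guanylate cyclase subunits Gucy1a1 and Gucy1b1, and Gch1, which starts the synthesis of the synthases' cofactor. Members were all probe sets whose only gene symbol, in the annotation of the array platforms, is one of these. This gave 19 of the 26202 probe sets of the series that are not controls, and all 19 lie on array A (19 of 8740). Arrays B and C hold 0 of them, so the strain comparison that B and C allow could not be made for any member.

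Total RNA from kidneys of rats aged 5 weeks had been hybridised to 15 arrays. Each of the designs A, B and C was used for kidneys numbered 1 to 5. Kidneys 1 to 3 were from Dahl salt-sensitive (Dahl S) rats on every design, inbred animals that become hypertensive when fed salt. On B and C, kidneys 4 and 5 were from a chromosome 10 congenic strain of Dahl S. A congenic strain carries a donor segment on an otherwise shared background, here that of Dahl S as far as the labels say. On A, the labels call kidneys 4 and 5 Dahl S, although B and C give these numbers to congenic rats. The strain of these 2 is therefore taken as unsettled here, with each reported singly. The sources used here do not give the donor strain, the extent of the segment, the diet or the sex. Nothing states that kidneys of a group came from separate animals, so spreads and p-values cover these samples only.

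Nitric oxide is made from arginine by 3 synthases, each of which needs calmodulin and tetrahydrobiopterin. Nos1, the neuronal form, is known in the kidney from the macula densa and tubules, Nos3 from the endothelium, and Nos2 is the inducible form known from immune stimulation and also described in tubules. Nitric oxide binds the haem of soluble guanylate cyclase, a dimer of an alpha and a beta subunit, and the cyclic GMP it makes relaxes vessels and lowers tubular sodium uptake. In RefSeq's annotation of rat assembly GRCr8, Nos2 lies on chromosome 10, Nos1 on 12, Nos3 on 4, Gch1 on 15, and Gucy1a1 and Gucy1b1 both on 2. Nos2 is thus the 1 member on the chromosome for which the congenic strain was made.

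Values are the authors' scaled linear signal intensities. Values under the 25th percentile of array A (85.1) were treated as a floor, below which they have no order. A probe set was called past the filter when its mean over the 5 kidneys reached the median of array A (319.5). Of the 19 member probe sets 9 were past the filter (50.5% of all probe sets of array A were), 13 lay above the floor in all 5 kidneys, and 4 lay below it in all 5. Nos2 and Nos3 had 3 probe sets past the filter each, Nos1, Gucy1a1 and Gch1 had 1 each, and Gucy1b1 had none. Signals of different probe sets depend on their probes, so no level of one is set against another. In bulk tissue fewer cells of a type and less RNA per cell cannot be told apart.

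Kidney markers were well measured on array A. All 7 genes listed for kidney epithelium (Lrp2, Slc34a1, Umod, Slc12a1, Slc12a3, Aqp2 and Calb1) were past the filter, and their summed signal over 15 probe sets was 200098 to 233904 in kidneys 1 to 3, 210528 in kidney 4 and 171216 in kidney 5. The adrenal cortex genes Cyp11b2 and Star and the skeletal muscle genes Acta1 and Ckm were not past it, although Acta1 and Ckm together gave 491.7 to 584.4 in the other kidneys and 185.0 in kidney 4. Th, listed for nerve and adrenal medulla, was past the filter at 376.3 to 671.6, highest in kidney 3, and so was the blood gene Hbb at 14455 to 22710, while Dbh was not. The median signal per array was 294.5 to 334.3 on A, lowest in kidney 4. Scaling every array to 1 median raised kidney 4 by 0.12 on the log2 scale (median of probe sets past the filter) and moved the other kidneys by less, so the place of kidney 4 among the members, the listed pathway genes and the marker sums was also taken under that scaling and under quantile normalisation. For kidney epithelium the sum of kidney 4 was the highest of 5 under median scaling (228843) and inside the Dahl S range under quantile normalisation (212589). Kidney 5 had the lowest sum on each scaling. Its probe sets did not move together: Slc34a1 in kidney 5 was lowest by rc_AI105198_i_at (33515 against 48780 to 62655) and highest by AB013453_at (3861.5).

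**Figure D1:**
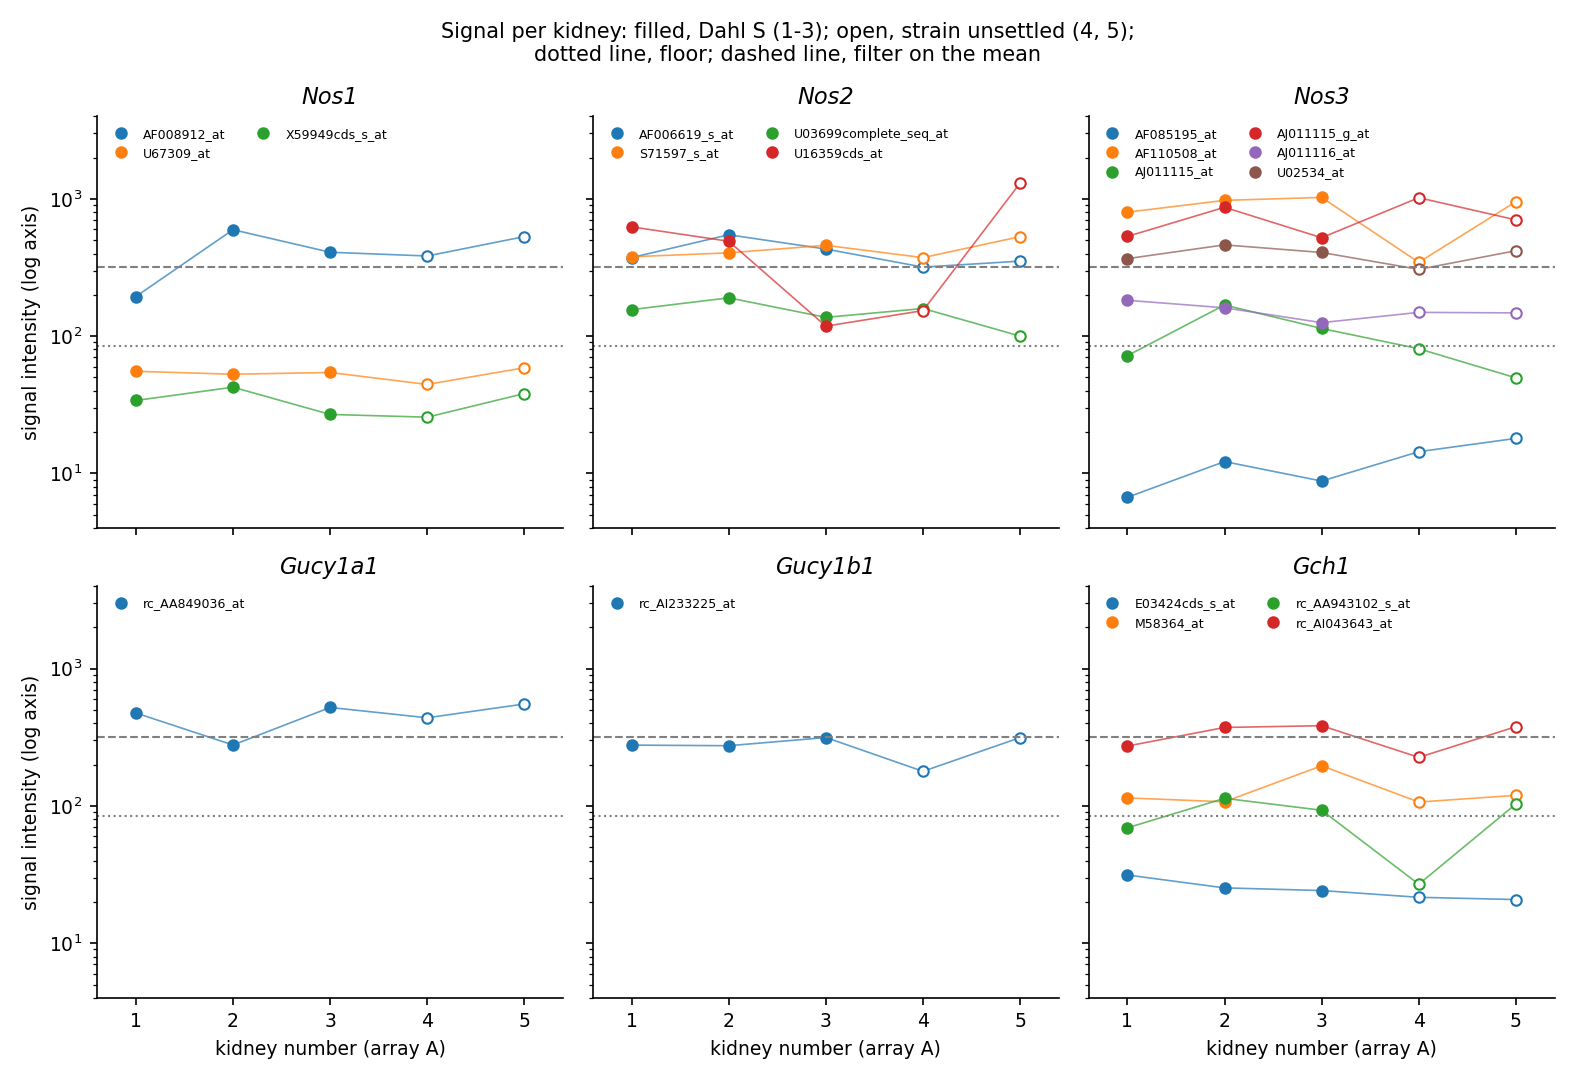
Signal intensity (log axis) of the 19 member probe sets in kidneys 1 to 5 of array A, by gene; filled points are Dahl S kidneys, open points the kidneys of unsettled strain, lines only join the values of a probe set, the dotted line is the floor of 85.1 and the dashed line the filter of 319.5. The Nos2 probe set U16359cds_at spans 118.3 to 1306.3, and AF110508_at of Nos3 drops to 345.2 in kidney 4.

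The synthases come first, and among them Nos2. Its probe set U16359cds_at varied most among the members. It measured 626.0, 491.6 and 118.3 in Dahl S kidneys 1, 2 and 3 (412 ± 263, SD, n = 3), 153.6 in kidney 4 and 1306.3 in kidney 5. Kidneys 3 and 4 were thus low and kidney 5 high, so that a Dahl S kidney lay at the bottom and the kidneys of unsettled strain stood apart from each other. The highest value was 11.0 times the lowest, a log2 range of 3.47 that exceeded the range of 99.8% of the 4411 probe sets past the filter, whose median was 0.53. Kidneys 3 and 4 both at least 2-fold below each of kidneys 1, 2 and 5 was a pattern of 4 of the 8740 probe sets of array A (0.0458%), this one included. Kidney 5 at least 2-fold above each other kidney was found for 13 probe sets (0.149%), with U16359cds_at at 2.09 times the next kidney, and at 1.99 and 1.98 times under quantile normalisation and median scaling. Both patterns were searched for after the values were seen.

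The second Nos2 probe set, AF006619_s_at, measured 373.9, 548.1 and 431.3 in Dahl S kidneys (451 ± 88.8, SD, n = 3), 318.6 in kidney 4 and 352.3 in kidney 5. Kidneys 4 and 5 both lay below the Dahl S values, with Dahl S means 1.42 and 1.28 times their levels. It was the 1 member of 19 with both on 1 side of the Dahl S range, where 13.7% of all probe sets of array A had both on 1 side and 7.62% had both below. Of the 4411 probe sets past the filter, 19% had both on 1 side and 10.1% had both below. With kidney 1, 2 or 3 left out of the range, 3, 2 and 2 members had both on 1 side, against 24.3%, 22.6% and 24.2% of all probe sets. AF006619_s_at was among them each time. Both also lay below the Dahl S range under median scaling and quantile normalisation, where kidney 5 was the lowest.

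The third, S71597_s_at, was the steadiest of the Nos2 probe sets past the filter. It measured 378.9, 404.8 and 459.1 in Dahl S kidneys (414 ± 40.9, SD, n = 3), 373.6 in kidney 4 and 531.4 in kidney 5. Kidney 5 was the highest of 5, and kidney 4 the lowest by a small margin. Under median scaling and quantile normalisation kidney 4 lay inside the Dahl S range. The fourth, U03699complete_seq_at, was not past the filter, at 156.2, 190.3 and 137.1 in Dahl S kidneys, 159.1 in kidney 4 and 100.1 in kidney 5. Here kidney 5 was the lowest.

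The Nos2 probe sets did not order the kidneys alike. Kidney 5 was above the Dahl S range by S71597_s_at and U16359cds_at and below it by AF006619_s_at and U03699complete_seq_at. Agreement was measured as the root mean square difference between 2 probe sets, each as log2 signal minus its own mean over the 5 kidneys. It was 0.33 between AF006619_s_at and S71597_s_at, 1.32 between AF006619_s_at and U16359cds_at and 1.23 between S71597_s_at and U16359cds_at. Over the 1197 pairs of probe sets past the filter that share a gene on array A the median was 0.23 and the 90th percentile 0.43. The 2 pairs with U16359cds_at exceeded 99.7% and 99.4% of those pairs, and the pair without it 77.3%. Those pairs were of any signal past the filter and were not matched to the signal of the Nos2 probe sets.

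The direction of the kidneys differed too. The 2 probe sets of a pair lay on the same side of their means in 3 of 5 kidneys for AF006619_s_at and S71597_s_at and in 2 of 5 for each pair with U16359cds_at, against a median of 3 over all same-gene pairs. S71597_s_at and U03699complete_seq_at were on the same side in 0 of 5 kidneys. With each kidney left out in turn, the difference was 0.98 to 1.48 between AF006619_s_at and U16359cds_at and 0.96 to 1.35 between S71597_s_at and U16359cds_at, still above the 90th percentile of 0.43 found with all kidneys.

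Further probe sets that carry the symbol of Nos2 together with that of its pseudogene Nos2-ps1, which also lies on chromosome 10, were not counted as members. There are 3, with signals of 27.9 to 49.5 (D44591_s_at), 103.0 to 310.8 (D83661_s_at) and 133.1 to 219.6 (U48829_s_at). In the last 2 kidney 5 was the highest on the deposited scale, for U48829_s_at by a small margin (219.6 against 214.1 in kidney 4). Their order under the other scalings was not looked at. Names ending in _s_at mark probe sets that can share sequence with more than 1 transcript, so AF006619_s_at and S71597_s_at may also read the pseudogene. The probe sequences were not used here.

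**Figure D2:**
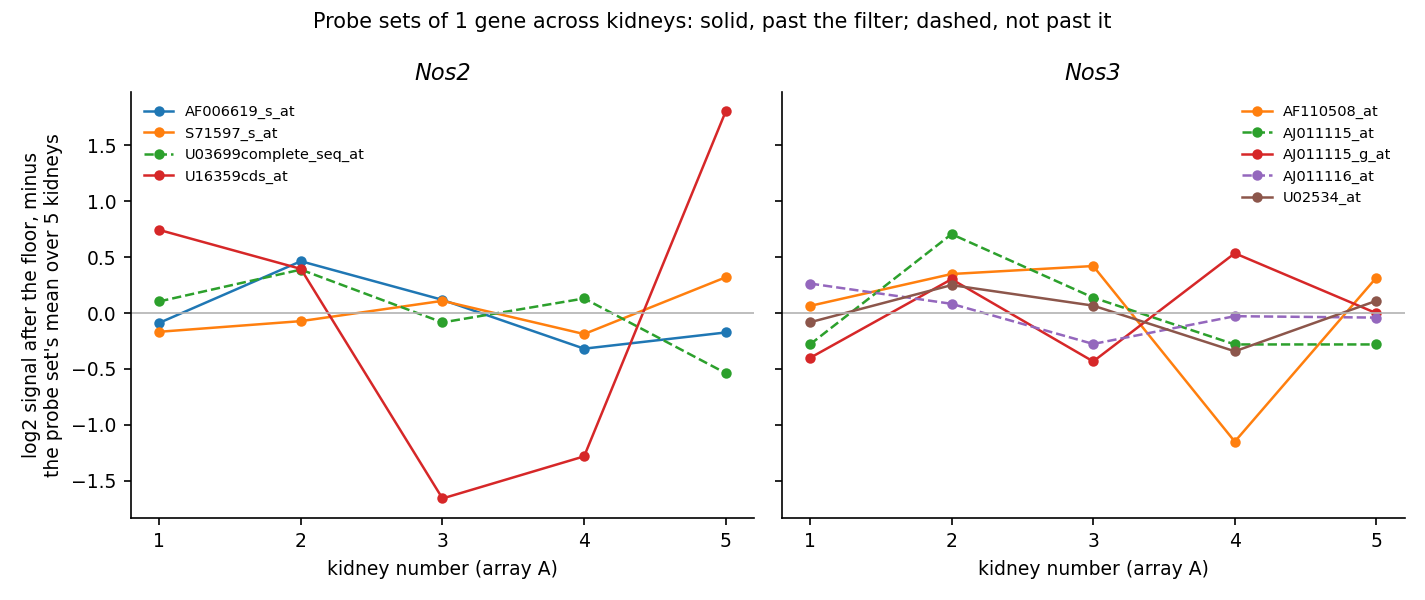
Log2 signal after the floor minus the probe set's mean over the 5 kidneys (vertical axis) by kidney number of array A, for the Nos2 and Nos3 probe sets that rise above the floor in at least 1 kidney; solid lines are past the filter, dashed lines are not. U16359cds_at of Nos2 runs from -1.66 in kidney 3 to 1.80 in kidney 5, and in kidney 4 the Nos3 probe sets AF110508_at and AJ011115_g_at stand at -1.15 and 0.53.

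Nos3, the endothelial synthase, had 6 probe sets. AF110508_at measured 800.8, 976.2 and 1025.8 in Dahl S kidneys (934 ± 118, SD, n = 3), 345.2 in kidney 4 and 955.1 in kidney 5. Kidney 4 alone was low, with a Dahl S mean 2.71 times its level, while kidney 5 lay among the Dahl S kidneys. Kidney 4 was at least 2-fold below each other kidney for 37 of the 8740 probe sets of array A (0.423%), this one included. That pattern was not planned before the values were seen.

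The probe set AJ011115_g_at gave the opposite for the same kidney. It measured 533.1, 869.0 and 521.7 in Dahl S kidneys (641 ± 197, SD, n = 3), 1020.8 in kidney 4 and 703.6 in kidney 5, so that kidney 4 was the highest of 5. U02534_at measured 367.3, 462.7 and 407.3 in Dahl S kidneys (412 ± 47.9, SD, n = 3), 306.8 in kidney 4 and 419.7 in kidney 5, with kidney 4 the lowest of 5. Under median scaling and quantile normalisation kidney 4 stayed below the Dahl S range for AF110508_at and U02534_at and above it for AJ011115_g_at.

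The difference between AF110508_at and AJ011115_g_at (root mean square 0.88 on the log2 scale) exceeded that of 98.7% of the same-gene pairs, and they lay on the same side of their means in 1 of 5 kidneys. AF110508_at and U02534_at differed by 0.41, more than 88.55% of the same-gene pairs, and lay on the same side in 4 of 5. AJ011115_g_at and U02534_at differed by 0.48, more than 92.4% of them, and lay on the same side in 2 of 5. The Nos3 probe sets thus did not give 1 answer for kidney 4.

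The other Nos3 probe sets were not past the filter. AJ011116_at measured 182.6, 161.0 and 125.5 in Dahl S kidneys, with 149.1 and 147.8 in kidneys 4 and 5, both inside the Dahl S range. AJ011115_at, from the same source sequence as AJ011115_g_at, measured 72.1, 168.7 and 113.8 in Dahl S kidneys, 81.0 in kidney 4 and 49.7 in kidney 5. Dahl S kidney 1 and kidneys 4 and 5 were under the floor, so kidneys 4 and 5 were level with kidney 1. AF085195_at was far under the floor in every kidney, at 6.7 to 18.0.

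Endothelial markers were measured on the same arrays. Of 6 listed genes 4 were on array A, and Pecam1, Kdr and Flt1 were past the filter while Vwf was not. Their summed signal over 5 probe sets was 2030 to 2457 in kidneys 1 to 3, 2012 in kidney 4 and 2496 in kidney 5. Under median scaling and quantile normalisation the sum of kidney 4 lay inside the Dahl S range. On the deposited scale kidney 4 lay inside it for each of the 3 genes past the filter (Flt1 726.9, Pecam1 849.3 and Kdr 313.3), while in kidney 5 Kdr (748.4) and Pecam1 (1107.9) were the highest of 5 and Flt1 (527.9) the lowest. The part of this in the Nos3 values was not tested.

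Nos1, the neuronal synthase, rose above the floor with 1 of its 3 probe sets. AF008912_at measured 194.5, 596.6 and 408.9 in Dahl S kidneys (400 ± 201, SD, n = 3), 383.9 in kidney 4 and 531.7 in kidney 5. Its spread came from the Dahl S kidneys themselves: kidney 1 was the lowest and kidney 2 the highest of the 5, at 3.07 times kidney 1, and kidneys 4 and 5 lay between them. A highest kidney at least 3 times the lowest was reached by 2 of 19 members, this probe set and U16359cds_at of Nos2, and by 3.91% of all probe sets of array A. The limit of 3 times was not planned before the values were seen, and AF110508_at of Nos3 fell just short of it at 2.97 times.

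The other Nos1 probe sets, U67309_at at 44.5 to 58.9 and X59949cds_s_at at 25.7 to 42.5, were under the floor in all 5 kidneys. They say no more than that their signal was among the lowest 25% of values on the array.

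**Figure D3:**
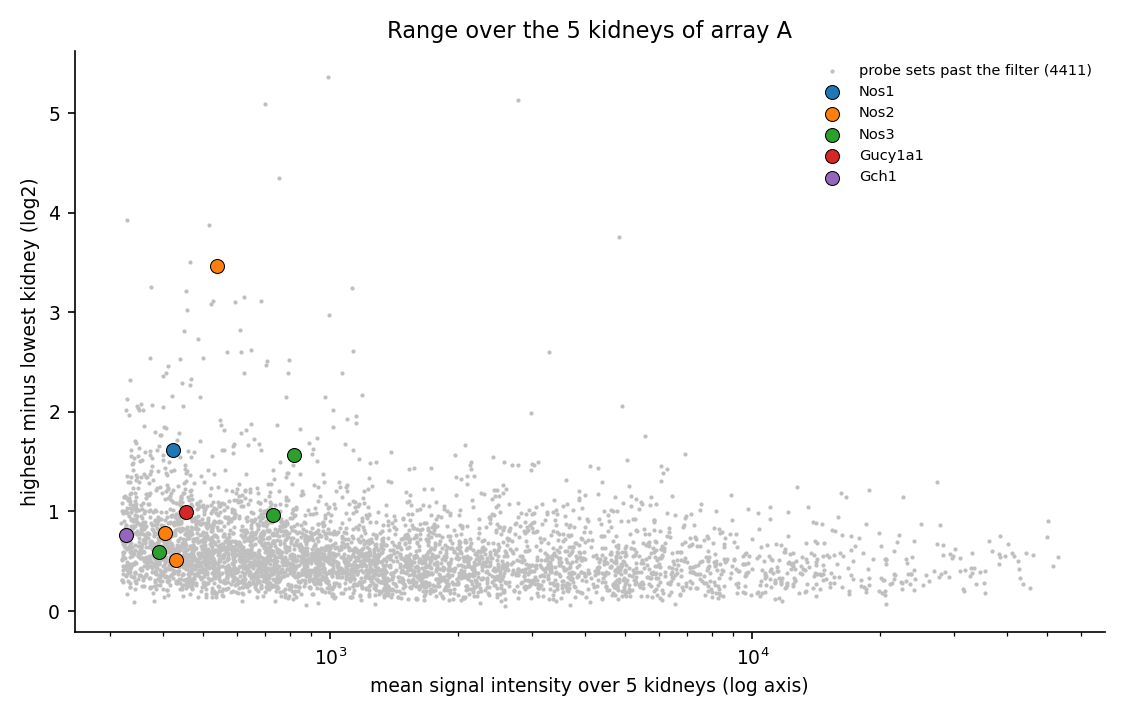
Highest minus lowest kidney on the log2 scale (vertical axis) against the mean signal intensity over the 5 kidneys (log axis) for the 4411 probe sets of array A past the filter (grey) and the 9 member probe sets among them (coloured by gene). U16359cds_at of Nos2 stands at a range of 3.47, followed by AF008912_at of Nos1 at 1.62 and AF110508_at of Nos3 at 1.57, above most probe sets of like signal.

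The members past the filter were dim, with means of 327 to 821, and ranges are wider there. Among the 1385 probe sets of array A with a mean from the filter up to 2 times the filter, the median log2 range over the 5 kidneys was 0.64. AF008912_at of Nos1 (1.62) exceeded 95.6% of them. The Nos2 probe sets AF006619_s_at (0.78) and S71597_s_at (0.51), U02534_at of Nos3 (0.59) and rc_AI043643_at of Gch1 (0.77) lay between 31.2% and 65.2%, near the middle of probe sets of like signal. Gucy1a1 (0.99) lay at 80.4%.

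The receptor subunits had 1 probe set each. Gucy1a1, the alpha subunit, measured 476.0, 278.1 and 522.0 in Dahl S kidneys (425 ± 130, SD, n = 3), 439.1 in kidney 4 and 553.6 in kidney 5. Kidney 2 was the lowest and kidney 5 the highest, and kidney 4 lay inside the Dahl S range. Gucy1b1, the haem-binding beta subunit, was not past the filter, at 277.6, 274.8 and 315.3 in Dahl S kidneys (289 ± 22.6, SD, n = 3), 178.8 in kidney 4 and 314.9 in kidney 5. Kidney 4 was the lowest, with a Dahl S mean 1.62 times its level, and remained so under median scaling and quantile normalisation. Under these 2 scalings kidney 5 lay just above the Dahl S range, at 307.3 against 301.9 and 307.0 against 302.9 in kidney 3.

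The subunits of the dimer did not share their lowest kidney, which was kidney 2 for Gucy1a1 and kidney 4 for Gucy1b1. A further subunit gene, Gucy1b2, measured 1035.5, 1321.5 and 1283.0 in Dahl S kidneys, 1409.9 in kidney 4 and 1593.9 in kidney 5. Both of the latter lay above the Dahl S values, as for 6.12% of all probe sets of array A and 8.82% of those past the filter. Markers of smooth muscle, mesangium and renin cells, cell types known for soluble guanylate cyclase, had a summed signal over 10 probe sets of 11416 to 13618 in kidneys 1 to 3, 10602 in kidney 4 and 12154 in kidney 5, with 4 of the 5 genes on the array past the filter and Des not. Kidney 4 was the lowest there on the deposited scale and under quantile normalisation, but at 11525 lay inside the Dahl S range of 10932 to 13986 under median scaling. The genes did not move together, since both Tagln probe sets were lowest in kidney 4 while Pdgfrb, at 469.5, lay inside the Dahl S range. The part of this in the Gucy1b1 value was not tested.

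Gch1 encodes GTP cyclohydrolase, the rate-limiting enzyme of tetrahydrobiopterin synthesis. Its brightest probe set, rc_AI043643_at, measured 273.2, 373.3 and 384.4 in Dahl S kidneys (344 ± 61.3, SD, n = 3), 226.1 in kidney 4 and 378.0 in kidney 5. Kidney 4 was the lowest of 5 on every scaling, and kidney 5 lay inside the Dahl S range on the deposited scale and just above it after median scaling. M58364_at measured 114.4, 107.3 and 196.3 in Dahl S kidneys with 106.8 and 119.5 in kidneys 4 and 5, where kidney 3 alone was high.

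The others of Gch1 were near or under the floor. The probe set rc_AA943102_s_at measured 69.3, 113.7 and 93.1 in Dahl S kidneys, 26.9 in kidney 4 and 103.4 in kidney 5, with kidneys 1 and 4 under the floor. E03424cds_s_at was under it in all 5 kidneys, at 20.8 to 31.4.

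Across the members, kidney 4 was the single lowest of 5 for 7 of 19 probe sets, against 21.6% of all probe sets of array A. These were AF006619_s_at and S71597_s_at of Nos2, AF110508_at and U02534_at of Nos3, Gucy1b1, and M58364_at and rc_AI043643_at of Gch1. Under median scaling the count fell to 4 (12.8% of all probe sets) and under quantile normalisation to 4 (16.6%). The 4 that stayed lowest in kidney 4 were the Nos3 probe sets AF110508_at and U02534_at, Gucy1b1 and rc_AI043643_at of Gch1. Kidney 4 lay below the Dahl S range for the same 7 members, inside it or level with it at the floor for 11 and above it for 1, against 24.7%, 59.9% and 15.4% of all probe sets. Kidney 5 lay above the Dahl S range for 3 members, below it for 2 and inside it, or level with it at the floor, for 14, against 21.1%, 16.1% and 62.7% of all probe sets. Under median scaling kidney 5 lay above it for 5 members (20.7% of all probe sets) and kidney 4 below it for 5 (15.3%). Under quantile normalisation these counts were 4 (19.3%) and 5 (20.1%).

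Genes whose values followed a member most closely were taken as the 3 probe sets, of those past the filter with 1 gene symbol, with the smallest root mean square difference of centred log2 signal over the 5 kidneys. AF110508_at of Nos3 was most like Renbp (0.089), Hpca (0.16) and Snap23 (0.16). Renbp measured 379.2, 394.7 and 413.3 in Dahl S kidneys, 142.2 in kidney 4 and 418.2 in kidney 5, so the drop in kidney 4 was found in other genes as well. Nos1 was most like Sycn (0.11), Inhba (0.22) and P2rx2 (0.22), Gucy1a1 like S100a1 (0.064), Prpsap2 (0.092) and Slc12a7 (0.093), and Gch1 like Acsl1 (0.051), Adam10 (0.057) and Nup62 (0.064). U16359cds_at of Nos2 had no close match, with RT1-DMa nearest at 0.69. With 5 kidneys and up to 3683 probe sets searched, close matches arise in number, and the lists are a description.

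A list of 52 genes that regulate or supply the synthases, or act on cyclic GMP, was set beside the members. On array A it had 33 genes in 52 probe sets, of which 28 were past the filter, with a median log2 range of 0.45 over the 5 kidneys. Kidneys 4 and 5 both lay on 1 side of the Dahl S range for 7 of the 52 (13.5%, against 13.7% of all probe sets of array A), and kidney 4 was the lowest for 12 (23.1%, against 21.6%). Under median scaling the counts were 3 (14.4% of all) and 8 (12.8%), and under quantile normalisation 6 (14.5%) and 13 (16.6%).

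The 6 widest ranges among the list's probe sets past the filter were in Cav1, Hmox1, Irf1, Pts, Qdpr and Hmox2. Wider ones than all of these but Cav1 were found among probe sets not past the filter, such as Ifngr1 (1.82) and Pde3a (1.72). Cav1, which holds Nos3 inactive in caveolae, measured 411.8, 414.5 and 101.3 in Dahl S kidneys and 427.0 and 423.5 in kidneys 4 and 5, with Dahl S kidney 3 alone low. Irf1, an interferon-induced activator of Nos2 transcription, measured 1172.1, 955.8 and 1068.2 in Dahl S kidneys (1065 ± 108, SD, n = 3), 637.8 in kidney 4 and 841.1 in kidney 5. Both of the latter were below the Dahl S values, as for 7.62% of all probe sets of array A and 10.1% of those past the filter. By the other Irf1 probe set, M34253_at, kidney 4 (196.7) was below the Dahl S range of 297.5 to 338.2 and kidney 5 (298.8) inside it. Hmox1, the inducible haem oxygenase, measured 603.1, 479.5 and 718.2, then 387.3 in kidney 4 and 533.6 in kidney 5 by rc_AI179610_at, and kidney 4 was the lowest. Its other probe set, J02722cds_at, was not past the filter and gave 284.3, 189 and 324.7, then 184.3 and 225.3. There kidney 4 was the lowest by a small margin, while under median scaling and quantile normalisation kidney 2 was. Hmox2, the constitutive form, whose gene lies on chromosome 10, measured 919.5, 880.8 and 613.2, then 957.5 and 878.5 by J05405mRNA_s_at, with kidney 3 the lowest. Its other probe set, U05013_at, gave 1013.5, 1009.0 and 1134.6, then 859.7 and 1046.9, with kidney 3 the highest and kidney 4 the lowest.

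The 4 genes of tetrahydrobiopterin synthesis and recycling on the array did not share a lowest kidney. Pts, the second enzyme of the route, measured 704.8, 728.3 and 410.0 in Dahl S kidneys, 664.6 in kidney 4 and 730.0 in kidney 5. Qdpr, which recycles the cofactor, measured 6687.2, 6804.4 and 4764.7, then 7483.5 in kidney 4 and 4793.1 in kidney 5, low in kidneys 3 and 5. Its other probe set was also low there, at 1886.7 and 1876.3 against 2291.9 to 2755.9 in the other kidneys. Gchfr, the feedback regulator of Gch1, was lowest in kidney 2 (930.4, with 952.2 in kidney 3), and Spr was lowest in kidney 4 on the deposited scale. Of the 5 probe sets of this group all were past the filter, and for 0 of them did kidneys 4 and 5 both lie on 1 side of the Dahl S range.

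Leukocyte markers, of interest for Nos2 and its inducers, were thin on array A: Lyz2 was past the filter, and Csf1r and Ptprc were not. Their summed signal over 5 probe sets was 3503 to 6784 in kidneys 1 to 3, 5128 in kidney 4 and 6548 in kidney 5. Nearly all of this sum was Lyz2, which measured 6380.0, 3072.3 and 5320.1 in Dahl S kidneys, 4730.6 in kidney 4 and 6201.9 in kidney 5. The part of leukocytes in the Nos2 values was not tested. The Tnf probe set, for a cytokine that induces Nos2, of array A was under the floor in all 5 kidneys, at 37.0 to 54.9. Il1b, listed with Tnf among the inducers, was not past the filter by any probe set. M98820_at of Il1b lay above the floor in all 5 kidneys. It measured 260.9, 233.3 and 176.3 in Dahl S kidneys, 192.6 in kidney 4 and 318 in kidney 5, the highest. By M98820_g_at only kidney 1 (105.4) was above the floor, and by E01884cds_s_at no kidney was. The part of Il1b in the Nos2 values was not tested.

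On arrays B and C the same list could be compared between strains, 3 Dahl S against 2 congenic kidneys. On array B 6 probe sets of 4 genes were tested with limma and 0 passed an adjusted p of 0.05, where 0.0912% of the 4385 tested probe sets did; 0 reached an unadjusted p under 0.05, against 3.49% of all. Differences, congenic minus Dahl S, were positive for 3 and negative for 3, with a median of 0.08 on the log2 scale against -0.01 over all tested probe sets. The strains overlapped for all 6, while 17.2% of all tested probe sets had strains without overlap.

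The smallest p on array B belonged to Vasp, a target of the cyclic GMP-dependent kinase, and to Cav1. Vasp (rc_AA956278_at) measured 1681.1, 1829.8 and 1566.8 in Dahl S and 2564.9 and 1704.0 in congenic kidneys, where congenic kidney 4 alone was high (log2 difference 0.31, SE 0.20, limma adjusted p = 0.998). Without that kidney the log2 difference was 0.01, and without kidney 5 it was 0.60. The other Vasp probe set of array B gave -0.07. Cav1 measured 2819.3, 1847.0 and 1670.9 against 2315.7 and 2885.3 by rc_AI012208_at (log2 difference 0.33, SE 0.25), and 507.7, 639.7 and 724.5 against 806.8 and 657.1 by rc_AI029942_at (0.24, SE 0.19). Without 1 kidney these log2 differences were 0.17 to 0.56 and 0.09 to 0.39. Both strains overlapped for each Cav1 probe set (limma adjusted p = 0.998 for each).

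On array C 8 probe sets of 8 genes were tested and 0 passed, where 0 of the 4420 tested probe sets did (0%). One, Pde9a, had an unadjusted p under 0.05 (1 of 8, against 6.20% of all). Pde9a, a phosphodiesterase that breaks down cyclic GMP, measured 581.4, 654.4 and 563.1 in Dahl S and 757.8 and 753.0 in congenic kidneys. Both congenic values lay above the Dahl S values (log2 difference 0.34, SE 0.14, limma adjusted p = 0.786).

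Ddah2, which clears an inhibitor of the synthases, measured 2214.9, 1698.2 and 1956.2 in Dahl S and 2361.6 and 2293.3 in congenic kidneys of array C, also without overlap (log2 difference 0.26, SE 0.16, limma adjusted p = 0.865). These 2 of 8 probe sets had strains without overlap, where 22.4% of all tested probe sets of array C did. Vasp measured 3538.4, 2868.3 and 3365.5 against 3131.3 and 1637.6, with congenic kidney 5 alone low (log2 difference -0.52, SE 0.27, limma adjusted p = 0.827). Without that kidney the log2 difference was -0.05, and without kidney 4 it was -0.99. The other tested genes, Abcc4, Ifngr1, Nfkbia, Nos1ap and Nosip, had log2 differences of -0.15 to 0.11.

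Spr, the last enzyme of tetrahydrobiopterin synthesis, was not past the filter on array C and was named after its values were seen. It measured 365.9, 414.7 and 355.9 in Dahl S kidneys (379 ± 31.5, SD, n = 3) and 143.0 and 169.3 in congenic kidneys (156 ± 18.6, SD, n = 2), the first of these under the floor of 153.6. The strains did not overlap. Tested without a filter on low values, the log2 difference was -1.23 after the floor (SE 0.10, limma adjusted p = 0.225), which did not pass. The Spr probe set of array A, which was past the filter there, measured 2275.2, 2517.8 and 2604.6 in Dahl S kidneys, 2162.0 in kidney 4 and 2916.4 in kidney 5, with kidneys 4 and 5 on opposite sides of the Dahl S range. Under median scaling kidney 4 lay inside it.

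**Figure D4:**
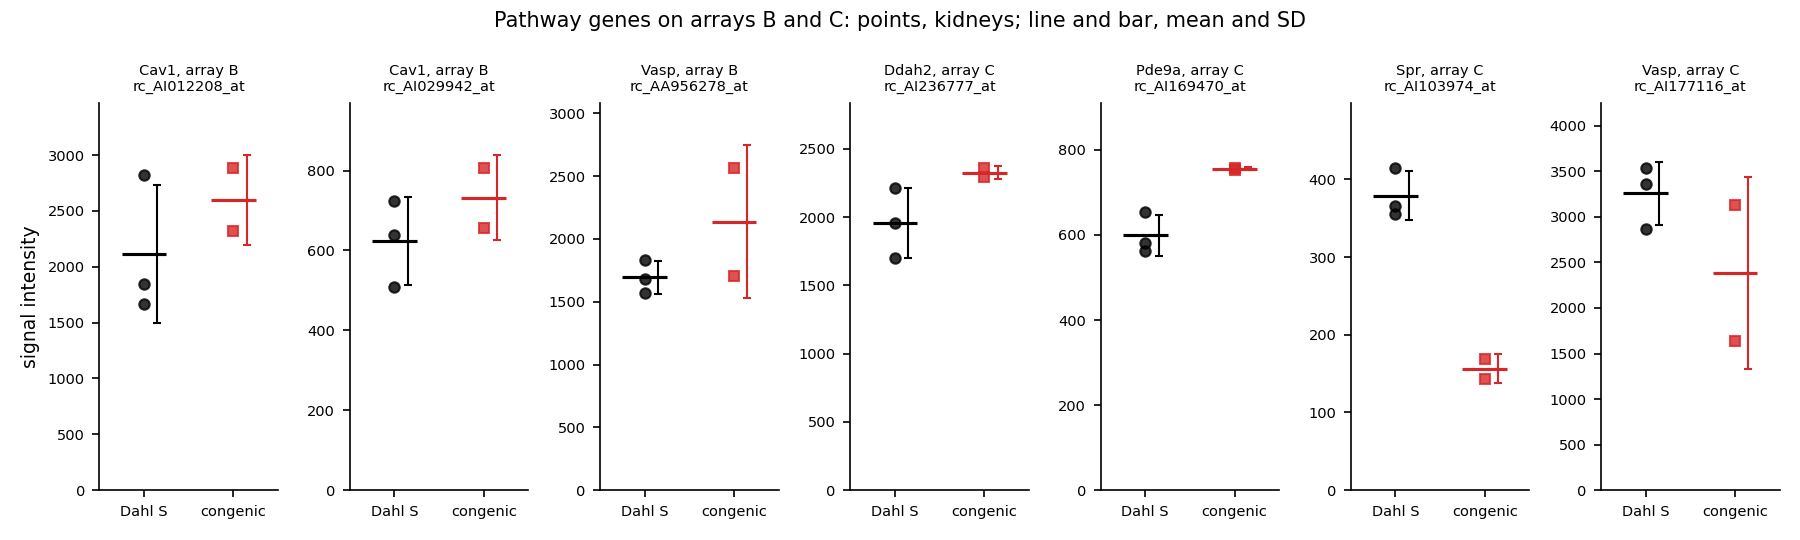
Signal intensity of the pathway probe sets with the smallest p on arrays B and C, and of Spr, in 3 Dahl S kidneys (black circles) and 2 congenic kidneys (red squares); each axis starts at 0, horizontal lines are means and bars SDs. The strains do not overlap for Ddah2, Pde9a and Spr on array C, and none of the differences passed an adjusted p of 0.05.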

How the data were processed

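Each design has 1 table of 5 arrays. The authors deposited signal intensity on a linear scale, 1 value for each probe set. The software that made them is not given in the sources used here. Each array had been scaled before deposit, as a trimmed mean (2% of values removed at each end) of 1000.6 to 1001.3 shows. That scale was kept, values were raised to the 25th percentile of the design (85.1 on A, 140.1 on B, 153.6 on C) and taken to log2, and probe sets with a mean under the median (319.5, 485.8 and 510.3) were left out of tests, as were 59 control probe sets per design. Whether background was subtracted is unknown. The number of arrays limits precision.

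Symbols came from the platform annotation, updated by gene identifier to RefSeq (GRCr8), used for names and chromosomes only; array A had 7006 probe sets with 1 symbol, 308 with several and 1426 with none. Strains were compared on B and C with limma 3.58.1 (lmFit, eBayes) in R 4.3.3, with Benjamini-Hochberg adjustment over all tested probe sets, after the procedure was tested on simulated data. As no member lay on B or C, the planned tests of members gave no value, and the pathway list was tested in their place. On A, values were described without a test.

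Named were all members, on A the 6 pathway probe sets past the filter with the largest range, on B and C the 3 with the smallest p, and the genes most like each member's brightest probe set. Gucy1b2, Tnf, Il1b and other probe sets of the named pathway genes on the same array were added for context after their values were seen. Members and lists were chosen with earlier results of these data known. Alternatives were other scalings, floors, filters and variance models, and leaving out 1 kidney.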

Additional observations from a re-analysis of the deposited data

How the results depend on the processing

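The agreement between Nos2 probe sets was also taken under quantile normalisation, median scaling, floors at the 10th and 40th percentile and without any 1 kidney. Its ranges were 0.22 to 0.37 (AF006619_s_at and S71597_s_at), 0.98 to 1.48 (AF006619_s_at and U16359cds_at) and 0.95 to 1.35 (S71597_s_at and U16359cds_at). The SD of the difference over the Dahl S kidneys was 0.29, 1.33 and 1.44 for these pairs, and every move was smaller. For the 2 pairs with U16359cds_at that SD is larger than the main value (1.32 and 1.23). It comes from the same differences, so a move could hardly exceed it, and no stability is read from this. The number of members with kidney 4 lowest went from 7 (21.6% of all probe sets) to 4 with quantile normalisation (16.6%) and to 4 with median scaling (12.8%). It was 10 with the floor at the 10th percentile (27.0%) and 6 at the 40th (16.5%). The number with kidneys 4 and 5 both on 1 side of the Dahl S range, 1, was 2 to 3 without 1 of the Dahl S kidneys, since fewer kidneys span a narrower range. On arrays B and C no pathway probe set passed an adjusted p of 0.05 with limma in any of the 11 settings tried for each, and the named log2 differences kept their sign, although leaving out 1 kidney moved Vasp between 0.01 and 0.60 on B and between -0.99 and -0.05 on C, and Cav1 between 0.09 and 0.56 over both probe sets. The settings for B and C and for the pathway list on A, and those that leave out a kidney on A, were chosen after seeing the data. No paired analysis was possible because the Dahl S and congenic kidneys of a design carry different numbers. Dim signal limits the members: 10 of 19 were not past the filter.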
